A study of Homo sapiens with 9 samples.

Results

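The genes described here are the 3 subunits of the transcription factor NF-Y (NFYA, NFYB and NFYC) and 5 genes whose proteins carry the histone-fold domain of NF-YB and NF-YC (DR1, DRAP1, POLE3, POLE4 and CHRAC1). They were taken by gene symbol from the gene tables, in which all 8 were found among 27111 genes, and their 19 transcripts were taken from the 58352 in the transcript tables. All 8 genes and 17 of the 19 transcripts passed the filter on low counts, which left 17108 genes and 34671 transcripts to test. RNA-seq was performed on multicellular tumor spheroids (MTSs), 3D cultures in Matrigel, of PC-3, a human prostate cancer cell line. Stable lines had been made by lentiviral infection and puromycin selection with the empty pSIN vector (Empty), or with pSIN carrying murine NF-YAl or NF-YAs, the long and the short splice form of NF-YA. Each group had 3 libraries, each from pooled MTSs, with the letters A to C for Empty and for NF-YAs and the letters A, B, D for NF-YAl. Each line is a single transduced population, so that the isoform and the line cannot be told apart, and reads of the murine transgene are counted under the human symbol wherever they align to it.

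NF-Y is a trimer that binds the CCAAT box, a common element of promoters. NF-YB and NF-YC form a dimer through their histone folds, and NF-YA joins this dimer and contacts the CCAAT bases. DR1 and DRAP1 pair in the same way as NC2, a repressor that sits on the TATA-binding protein, POLE3 and POLE4 pair as the small subunits of DNA polymerase epsilon, and POLE3 also pairs with CHRAC1 in the CHRAC chromatin remodeler.

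The sum of expected counts lay between 18076979 and 27163976 per library. Within each group the libraries were further apart than counting error gives, with a mean chi-square per gene of 6.39 to 92.7, the largest for NF-YAl A against D. Among markers of the cell line, the epithelial keratins KRT8 and KRT18 were above 100 CPM (counts scaled by library size and TMM factors) in each group mean, the prostate antigen KLK3 was at 0 in all libraries and the leukocyte gene PTPRC had at most 11.6 counts. KRT8 went from 286 CPM in Empty to 114 CPM and 167 CPM in NF-YAl and NF-YAs. The part of this shift in the results for the 8 genes was not tested.

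The sequences that set the NF-YA forms apart are shown first because the transcript results turn on them. Exon 3 of NFYA lies at chr6:41048550-41048636 on the plus strand of GRCh37, is 87 bases long with a GC content of 63.2%, and adds 29 codons to the coding sequence. Both lines below are the human reference sequence with 30 bases of the neighbouring exons. Capitals mark exon 3 in the first and the 4 bases on each side of the exon 2 to exon 4 junction in the second.
with exon 3: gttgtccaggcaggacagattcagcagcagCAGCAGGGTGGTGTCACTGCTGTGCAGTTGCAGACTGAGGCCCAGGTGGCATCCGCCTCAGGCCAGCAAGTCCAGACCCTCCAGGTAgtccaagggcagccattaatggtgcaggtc
without exon 3: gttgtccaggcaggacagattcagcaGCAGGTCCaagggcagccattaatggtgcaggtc
The counted transcripts were 6219 bases long with exon 3 and 6132 bases long without it, so that 1.40% of the longer transcript tells them apart.

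Since NF-Y reads the CCAAT box, the promoters of the members were searched for CCAAT and its reverse complement ATTGG, in RefSeq windows of 300 bases (250 before and 50 after a transcription start, table of GRCh38.p14) that were placed in GRCh37 by exact match. Windows were found for 6 of the 8 genes. The pentamer occurred in 5 of their 10 windows, beside 34.6% of all 35116 windows, and the matches fell in NFYC, POLE4 and NFYA. A match is a match of letters and not a measured site. The 25-base stretches of 4 of the 7 matches are shown on the plus strand with the pentamer in capitals, the first base of the pentamer being counted from the start site.
NFYC, base -98, chr1:41157268-41157292: tcgccccttcCCAATtctcgcgaga
NFYC, second start, base -95, chr1:41174933-41174957: agcagttcagCCAATgggaccactg
POLE4, base -232, chr2:75185528-75185552: ggcacaggcaCCAATgggaggtgcc
NFYA, base 46 after the start, chr6:41040748-41040772: ggagcctctgATTGGgtttcggagt
NFYC held 5 matches over 3 windows. No match was found in the windows of DR1, DRAP1 and POLE3.

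Compared per length as TPM, the abundance of transcripts relative to all others of the library, the 8 genes kept much of their order from library to library. DRAP1 ranked first and NFYB last in all 9 libraries. In Empty the mean TPM was 270 ± 30.8 for DRAP1, 51.7 ± 7.69 for POLE4, 34.7 ± 4.60 for POLE3 and 24.8 ± 2.81 for DR1 (SD, n = 3). Next came NFYA with 17.1 ± 2.55, CHRAC1 with 15.8 ± 1.84 and NFYC with 13.9 ± 1.67, whose levels overlapped across the Empty libraries, although their order within each library was the same. NFYB closed the order with 5.84 ± 0.924 TPM. The other 6 genes changed rank in at least 1 library. NFYA ranked 5 in every Empty library, 3 in every NF-YAs library and 2 in every NF-YAl library. In both lines its level includes transgene reads wherever they align. DR1 ranked 4 in every Empty library, 5 in every NF-YAs library and 7, 6 and 5 in NF-YAl A, B and D. The ranks compare TPM only within a library. The median TPM of the tested genes was 13.5 in NF-YAl library D and 6.82 to 9.41 in the others. Fits on log2(TPM + 1), among the alternatives below, compare TPM between libraries and carry this difference.

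To ask whether the subunits followed the overexpressed NF-YA, each group was compared with the others gene by gene on counts. Against Empty, NFYA rose in both lines. At an adjusted p under 0.01, DESeq2 also called NFYB, NFYC and DRAP1 in NF-YAl. The main edgeR fit called none of the other 7 genes. One of the 8 members was thus called in NF-YAl, beside 19.6% of all tested genes, and 1 of 8 in NF-YAs, beside 22.6%. Between the lines 1 of 8 was called, POLE4, beside 11.0%. In Empty the NFYA level was 89.3, 96.7 and 89.4 CPM in libraries A, B and C. It was 287, 383 and 353 CPM in NF-YAl A, B and D, and 265, 263 and 254 CPM in NF-YAs A, B and C. All NF-YAl libraries lay above all NF-YAs libraries, and these above Empty, so that the overexpressed gene went with the labels of both lines. The log2FC over Empty was 1.89 (SE 0.112, adjusted p = 6.41e-07, edgeR quasi-likelihood test, adjusted by Benjamini-Hochberg over all genes) in NF-YAl, a 3.72-fold difference, and 1.51 (SE 0.111, adjusted p = 2.21e-06) in NF-YAs, a 2.84-fold difference. NF-YAl and NF-YAs differed in NFYA by a log2FC of 0.39 (95% interval 0.15 to 0.62, adjusted p = 0.0228), which did not pass in the main edgeR fit. It passed in 2 of 17 alternatives, with DESeq2 (adjusted p = 0.00638) and without NF-YAl library A (log2FC of 0.50, adjusted p = 0.00143). Over all 17 the log2FC ran from 0.30 to 0.50 and the adjusted p from 0.00143 to 0.380. Endogenous and transgene-derived reads cannot be told apart in these values, and neither can more expressing cells and more RNA per cell.

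**Figure D1:**
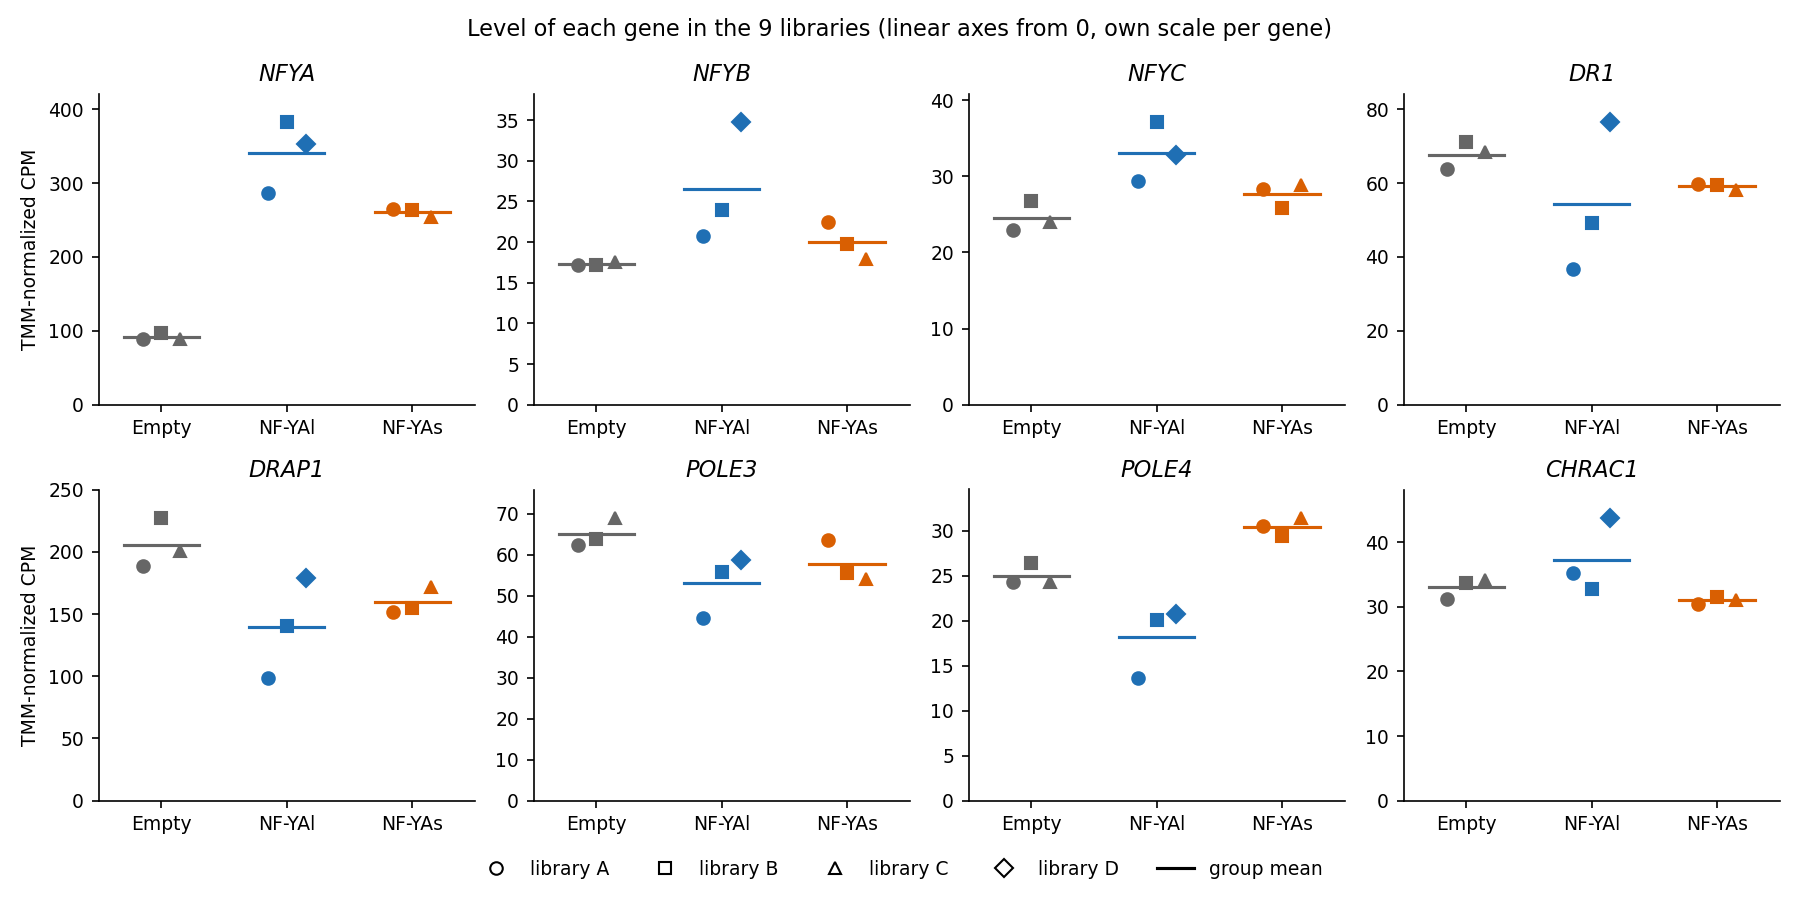
Level of each of the 8 genes in TMM-normalized CPM (y axis, linear from 0) in the Empty, NF-YAl and NF-YAs libraries (x axis). Points are libraries and horizontal lines are group means of 3 libraries. NFYA lay at 89.3 to 96.7 CPM in Empty and at 254 CPM or above in both lines, while POLE4 was lowest in NF-YAl and highest in NF-YAs.

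NFYB, the histone-fold subunit that pairs with NF-YC, had 17.2, 17.1 and 17.6 CPM in Empty A, B and C. In NF-YAl it had 20.7, 23.9 and 34.8 CPM in A, B and D, and in NF-YAs 22.4, 19.8 and 17.9 CPM in A, B and C. Both lines lay above Empty in every library, with library D of NF-YAl far above the rest. The log2FC over Empty was 0.62 (SE 0.170, adjusted p = 0.0155) in NF-YAl and 0.21 (SE 0.171, adjusted p = 0.368) in NF-YAs. Neither passed, and between the lines the log2FC was 0.41 (95% interval 0.03 to 0.78, adjusted p = 0.106).

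NFYC, the other histone-fold subunit, had 22.9, 26.7 and 24.0 CPM in Empty A, B and C. Its level was 29.3, 37.2 and 32.9 CPM in NF-YAl A, B and D, and 28.3, 25.8 and 28.9 CPM in NF-YAs A, B and C. NF-YAl lay above both other groups without overlap, and NF-YAs overlapped Empty. The log2FC over Empty was 0.43 (SE 0.114, adjusted p = 0.0120) in NF-YAl and 0.17 (SE 0.115, adjusted p = 0.266) in NF-YAs, and between the lines it was 0.26 (adjusted p = 0.120). The values of NFYB and NFYC in NF-YAl sat close to the threshold. DESeq2 placed both past it (adjusted p = 0.00378 and 0.00371), as did leaving out NF-YAl library A (adjusted p = 0.00180 and 0.00324). Without NF-YAl library D the log2FC of NFYB was 0.37 (adjusted p = 0.0271), and that of NFYC was 0.44 (adjusted p = 0.0113). Over the alternatives tried the log2FC of NFYB ran from 0.34 to 0.79 with an adjusted p of 0.00180 to 0.107, and that of NFYC from 0.34 to 0.69 with an adjusted p of 0.00324 to 0.0979. The upper ends of these ranges came from limma on log2(TPM + 1).

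NFYA relative to its partners was read within each library, as ratios of TPM that do not depend on scaling between libraries. In both lines NFYA TPM includes transgene reads wherever they align, scaled by the length of the human transcripts. The ratios are thus not a measured excess of NFYA RNA molecules. The ratio of NFYA to NFYB was 2.88, 3.11 and 2.81 in Empty A, B and C. It was 7.68, 8.87 and 5.60 in NF-YAl A, B and D and 6.54, 7.40 and 7.86 in NF-YAs A, B and C. Both lines lay above Empty in every library and overlapped each other. For NFYA to NFYC, the mean ratio was 3.37 ± 0.151 in NF-YAl, 3.09 ± 0.215 in NF-YAs and 1.23 ± 0.0502 in Empty (SD, n = 3). The ratio of NFYB to NFYC, which form the histone-fold dimer, had means of 0.476 ± 0.134, 0.428 ± 0.0540 and 0.419 ± 0.0352 in the same order, and all groups overlapped. With 3 libraries against 3, the two-sided exact permutation test cannot go below p = 0.1, which is what the ratios of NFYA to either partner gave in each line against Empty (adjusted p = 0.2 over 18 comparisons).

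**Figure D2:**
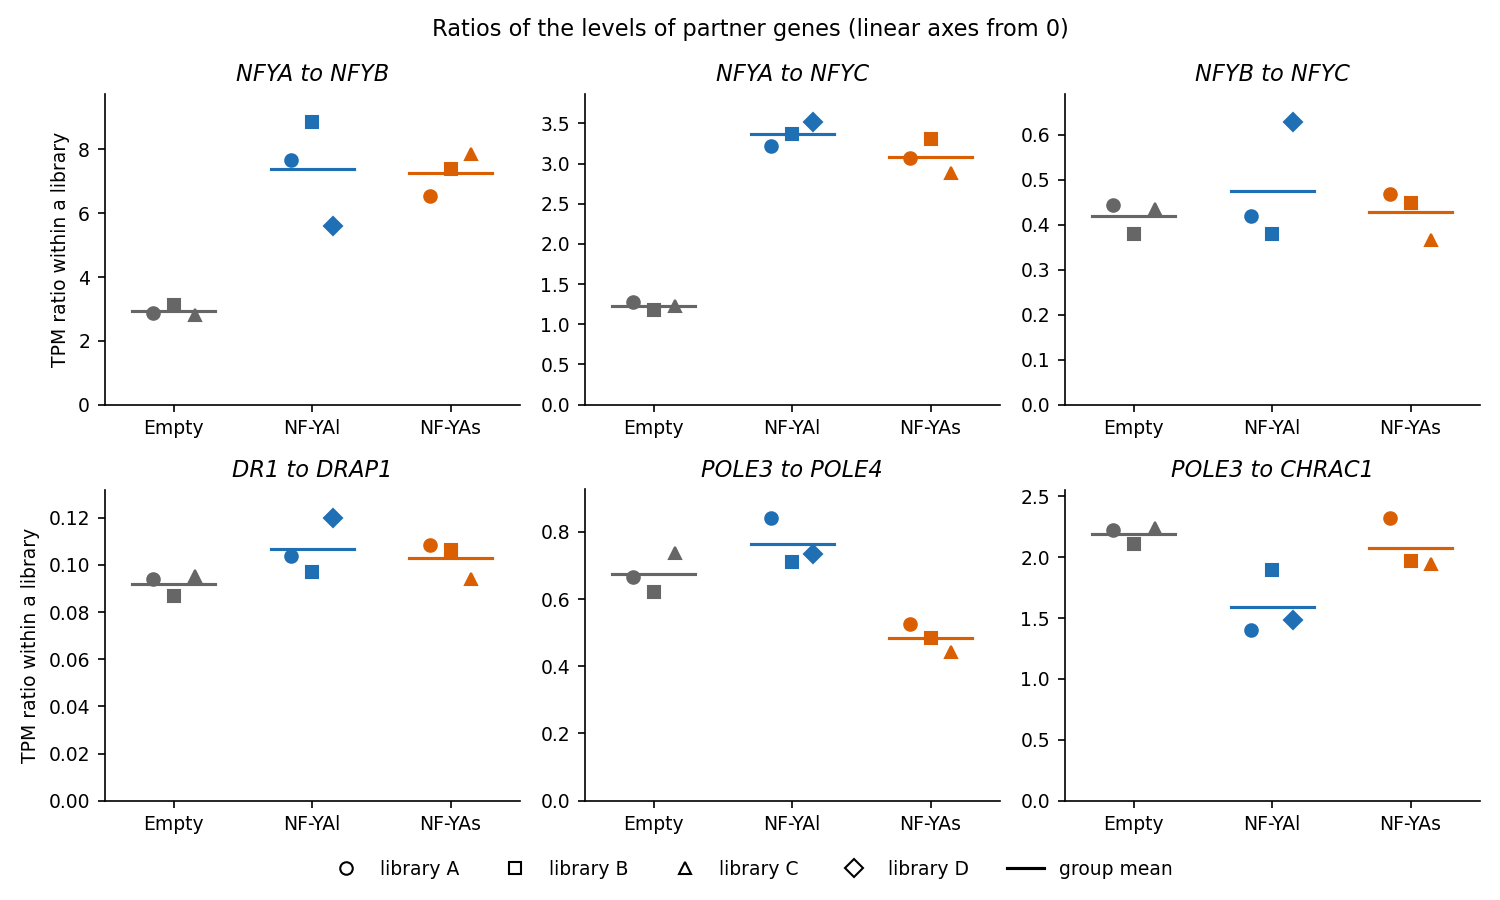
Ratio of the TPM of partner genes within each library (y axis, linear from 0) by group (x axis), with points for libraries and lines for means of 3 libraries. The ratio of NFYA to NFYB was at most 3.11 in Empty and at least 5.60 in both lines, and that of POLE3 to POLE4 was lowest in NF-YAs.

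DR1 and DRAP1, the partners of the NC2 repressor, had lower mean levels in both lines than in Empty. The main edgeR fit called no difference. DRAP1 had 189, 228 and 201 CPM in Empty A, B and C, 98.9, 140 and 179 CPM in NF-YAl A, B and D, and 152, 155 and 172 CPM in NF-YAs A, B and C. Empty lay above every library of both lines. The log2FC of DRAP1 over Empty was -0.56 (SE 0.170, adjusted p = 0.0248) in NF-YAl and -0.37 (SE 0.170, adjusted p = 0.113) in NF-YAs. DRAP1 was called in NF-YAl by DESeq2 (adjusted p = 0.00795) and in NF-YAs in an edgeR fit of NF-YAs and Empty alone (adjusted p = 0.00252). DR1 had 63.7, 71.1 and 68.4 CPM in Empty A, B and C, 36.9, 49.2 and 76.6 CPM in NF-YAl A, B and D, and 59.7, 59.6 and 58.1 CPM in NF-YAs A, B and C. Library D of NF-YAl was the highest of the 9 libraries for DR1 and library A of NF-YAl the lowest. The log2FC was -0.32 (SE 0.195, adjusted p = 0.241) in NF-YAl and -0.20 (SE 0.195, adjusted p = 0.468) in NF-YAs. The results for NF-YAl depend on libraries A and D. Without D, DR1 had a log2FC of -0.65 (adjusted p = 7.93e-04) and DRAP1 one of -0.78 (adjusted p = 8.48e-04), both past the threshold. Without A, DR1 had one of -0.11 (adjusted p = 0.631) and DRAP1 one of -0.36 (adjusted p = 0.0354). Over all alternatives the adjusted p ran from 6.53e-04 to 0.905 for DR1 and from 3.77e-04 to 0.606 for DRAP1. The highest of each came from limma on log2(TPM + 1). Within libraries, the ratio of DR1 to DRAP1 had a mean of 0.0920 ± 0.00454 in Empty and 0.107 ± 0.0117 in NF-YAl (SD, n = 3), without overlap (exact permutation p = 0.1).

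POLE4, a small subunit of DNA polymerase epsilon, was the member that the main edgeR fit called between the lines. It had 24.2, 26.4 and 24.3 CPM in Empty A, B and C, 13.6, 20.1 and 20.8 CPM in NF-YAl A, B and D, and 30.5, 29.4 and 31.4 CPM in NF-YAs A, B and C. Every NF-YAl library lay below Empty and every NF-YAs library above it. The log2FC of NF-YAl against NF-YAs was -0.74 (SE 0.144, 95% interval -1.05 to -0.43, adjusted p = 0.00344, edgeR), a level 1.67-fold lower. Neither line was called against Empty in the main edgeR fit. The log2FC was -0.46 (SE 0.143, adjusted p = 0.0291) in NF-YAl and 0.29 (SE 0.142, adjusted p = 0.138) in NF-YAs. NF-YAs against Empty passed in 0 of 17 alternatives, with an adjusted p of 0.0105 in an edgeR fit of NF-YAs and Empty alone. NF-YAl against Empty passed without NF-YAl library D (log2FC of -0.56, adjusted p = 0.00790) and had a log2FC of -0.29 (adjusted p = 0.0492) without NF-YAl library A. The call between the lines was lost without any 1 of the NF-YAs libraries (adjusted p = 0.0138 without A, 0.0136 without B and 0.0190 without C), in a fit of these 2 groups alone (adjusted p = 0.0153) and on log2(TPM + 1) (adjusted p = 0.237). Over all alternatives the log2FC stayed between -0.86 and -0.58, and the adjusted p ran from 3.89e-05 to 0.237.

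POLE3, which pairs with POLE4 or with CHRAC1, was below Empty in all NF-YAl libraries, with 44.5 to 58.8 CPM against 62.5 to 69.0 CPM, and had 54.0 to 63.6 CPM in NF-YAs. Its log2FC over Empty was -0.29 (adjusted p = 0.0715) in NF-YAl and -0.17 (adjusted p = 0.268) in NF-YAs. CHRAC1 had 31.3 to 34.2 CPM in Empty, 32.8 to 43.8 CPM in NF-YAl and 30.4 to 31.6 CPM in NF-YAs, with a log2FC over Empty of 0.17 (adjusted p = 0.271) and -0.09 (adjusted p = 0.567). The ratios of POLE3 to its partners set the lines apart without overlap. POLE3 to POLE4 had a mean of 0.763 ± 0.0697 in NF-YAl, 0.484 ± 0.0411 in NF-YAs and 0.675 ± 0.0596 in Empty, and NF-YAs was the lowest in every library (exact permutation p = 0.1 against either group). POLE3 to CHRAC1 had a mean of 1.59 ± 0.263 in NF-YAl, 2.08 ± 0.213 in NF-YAs and 2.19 ± 0.0730 in Empty (SD, n = 3), and NF-YAl was the lowest in every library (exact permutation p = 0.1 against either group).

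**Figure D3:**
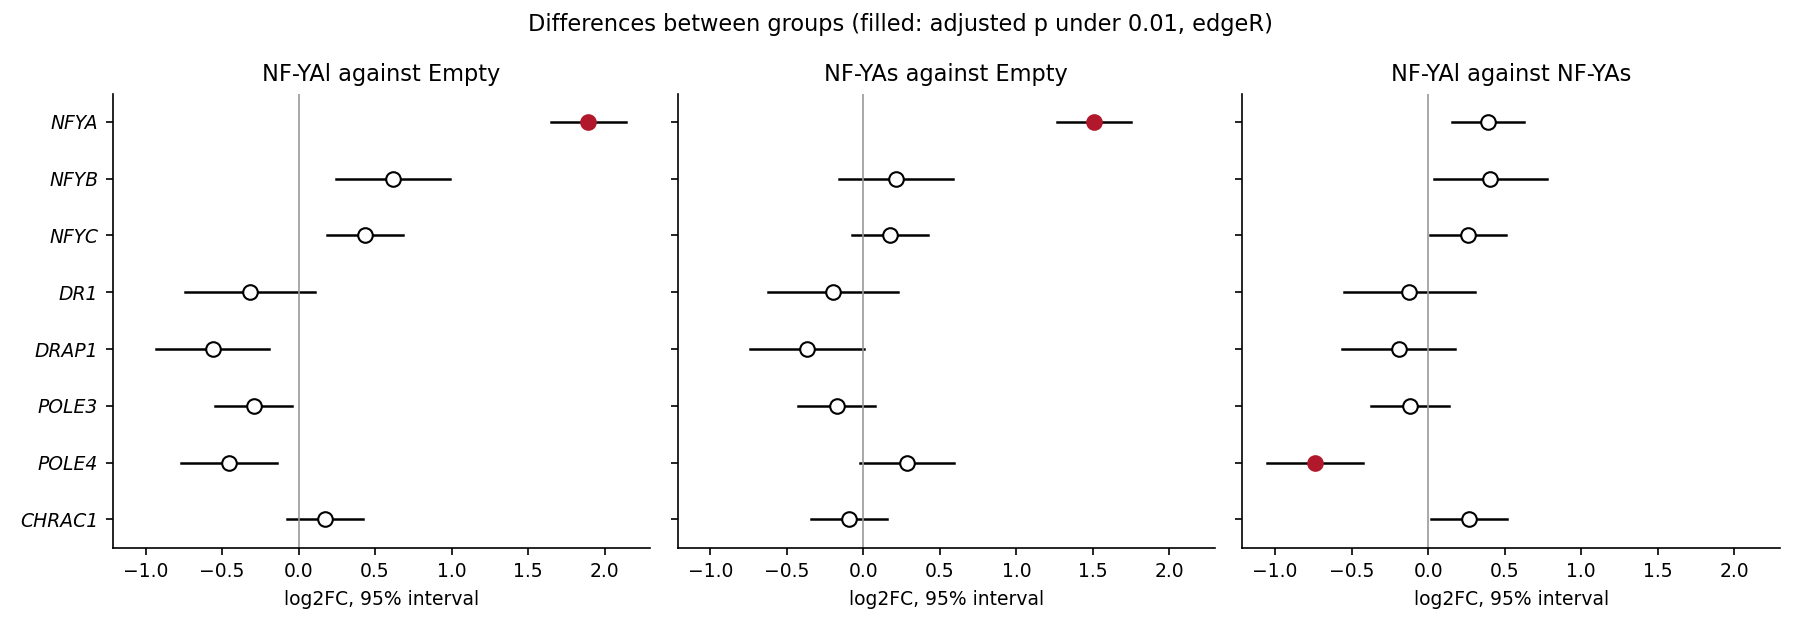
The log2FC of the 8 genes (x axis) in the 3 comparisons, one per panel, with 95% intervals from edgeR. Filled points had an adjusted p under 0.01: NFYA in both lines against Empty, and POLE4 at -0.74 in NF-YAl against NF-YAs.

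Read as a group, the 8 genes shared no direction, with 4 log2FC above 0 and 4 below in each comparison. Their median log2FC was -0.06 in NF-YAl and 0.04 in NF-YAs against Empty, beside 0.011 and -0.0026 over all tested genes. The libraries of the groups compared did not overlap for 6 of 8 members in NF-YAl against Empty, beside 42.4% of all tested genes, for 5 of 8 in NF-YAs against Empty, beside 56.4%, and for 4 of 8 between the lines, beside 39.5%. NFYA, whose counts include transgene reads wherever they align, is among the members without overlap in each comparison. The comparisons with Empty share its 3 libraries. Replicates spread more in NF-YAl: the members' coefficient of variation had a median of 18.6% there, 5.10% in Empty and 4.58% in NF-YAs, beside medians of 16.4%, 9.28% and 8.28% over all tested genes. Within NF-YAl, library A was the lowest for 7 of the 8 members, beside 37.6% of all tested genes, and library D the highest for 6 of 8, beside 37.6%.

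At the transcript level, the NFYA form that edgeR called in both lines against Empty was the one without exon 3. This transcript had 62.8, 36.0 and 40.0 CPM in Empty A, B and C, 202, 271 and 119 CPM in NF-YAl A, B and D, and 203, 240 and 198 CPM in NF-YAs A, B and C. All libraries of both lines lay above Empty, in the line that carries the long form too. How reads of the murine transgene were divided between the human transcripts was not tested. The values are therefore not a measure of short form made in the NF-YAl line. The log2FC was 2.09 (SE 0.322, adjusted p = 0.00802) in NF-YAl and 2.21 (SE 0.323, adjusted p = 0.00560) in NF-YAs. The transcript with exon 3 had 26.9, 60.0 and 49.1 CPM in Empty A, B and C, 86.6, 115 and 234 CPM in NF-YAl A, B and D, and 61.4, 24.1 and 56.9 CPM in NF-YAs A, B and C. NF-YAl lay above both other groups, and NF-YAs overlapped Empty. Its log2FC was 1.68 (SE 0.497, adjusted p = 0.0869) in NF-YAl, 0.07 (SE 0.488, adjusted p = 0.967) in NF-YAs and 1.62 (SE 0.497, adjusted p = 0.130) between the lines, none past the threshold with edgeR. DESeq2 called it in NF-YAl against Empty (adjusted p = 0.00233) and between the lines (adjusted p = 0.00555). Of the 17 member transcripts tested, 1 was called in each line against Empty, beside 2.89% of all transcripts in NF-YAl and 3.77% in NF-YAs, and 0 between the lines by edgeR, beside 0.511%, with 3 at an unadjusted p under 0.05 and 3 called by DESeq2, the NFYA transcript with exon 3 among them.

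The call of the transcript without exon 3 was lost in 8 of the 9 fits of NF-YAl against Empty that left out 1 library, where its log2FC stayed between 1.80 and 2.37 and the adjusted p between 0.00442 and 0.0438. It held without NF-YAl library D. In NF-YAs the call was lost without any 1 library of Empty or NF-YAs and held without any 1 of NF-YAl, with log2FC from 2.05 to 2.49 and an adjusted p of 0.00268 to 0.0327. In simulated data for NF-YAl against Empty, the transcript test recovered 42 of 200 transcripts changed by a log2FC of 1.5. It recovered 128 of 200 changed by 3, over 32230 and 32270 transcripts tested, so that misses were common there.

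The share of NFYA TPM that RSEM gave to the transcript with exon 3 was 29.7, 62.1 and 54.7% in Empty A, B and C, 29.7, 29.5 and 66.1% in NF-YAl A, B and D, and 23.0, 9.02 and 22.1% in NF-YAs A, B and C. NF-YAs lay below both other groups in every library, whereas NF-YAl spread over the range of Empty, with A and B at the level of Empty A and D above all others. The mean share in NF-YAs was 18.0 ± 7.81%, against 48.8 ± 17.0% in Empty and 41.8 ± 21.1% in NF-YAl (SD, n = 3). Its exact permutation p was 0.1 against either group, the smallest that 3 against 3 allows, and 0.9 for NF-YAl against Empty. Without NF-YAl library D, the difference between NF-YAl and NF-YAs was 11.6 percentage points, compared with 23.7 with it, and that between NF-YAl and Empty was -19.2, compared with -7.07. The shares rest on the reads that cover 87 bases or the junction that lacks them.

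**Figure D4:**
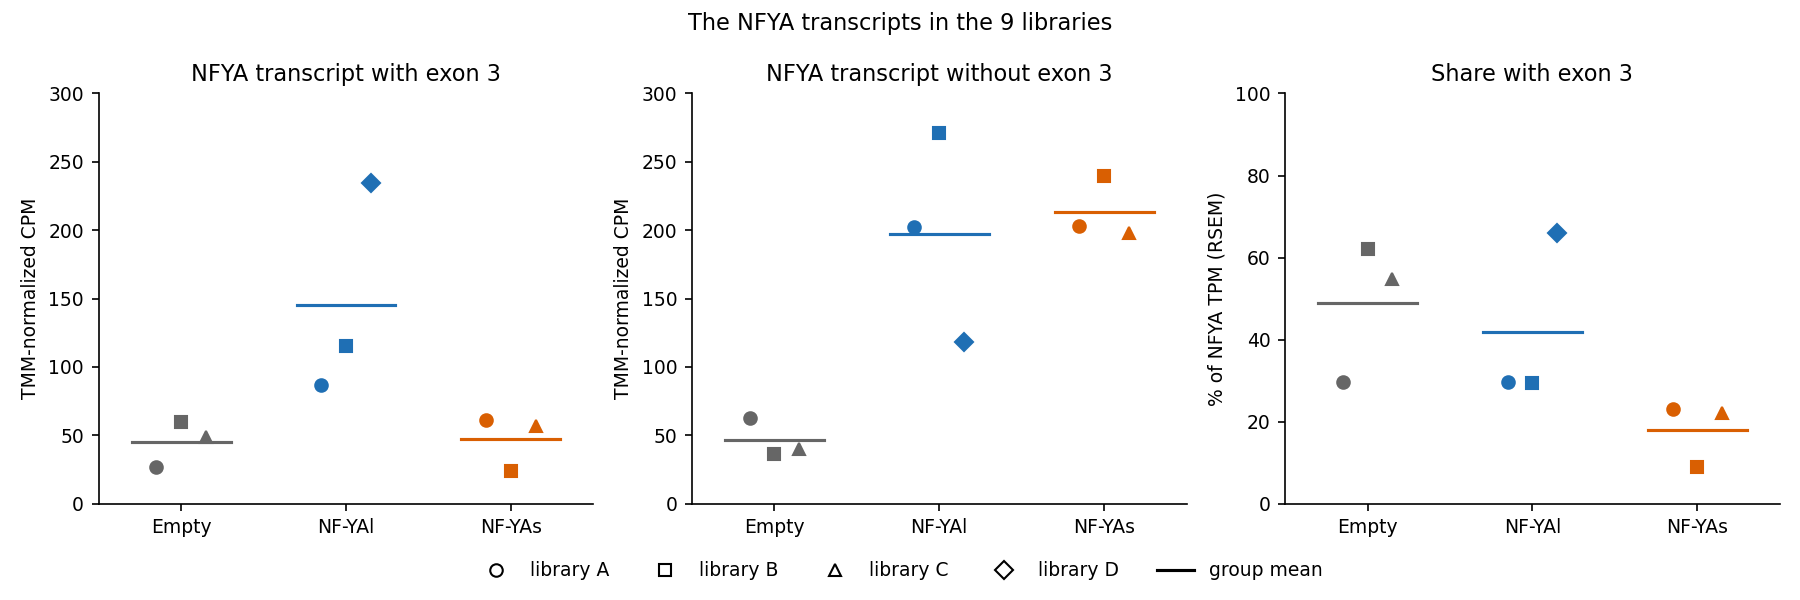
NFYA transcripts with and without exon 3 in TMM-normalized CPM (left and middle, y axes linear from 0) and the share of NFYA TPM with exon 3 in percent (right), by group. Points are libraries and lines are means of 3 libraries. The transcript without exon 3 was at most 62.8 CPM in Empty and at least 119 CPM in both lines, and the share with exon 3 was 9.02 to 23.0% in NF-YAs.

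The other members have 1 to 7 transcripts each. NFYB, DR1, DRAP1 and POLE4 are represented by 1 transcript. Of the 7 of NFYC, that of 2089 bases took 76.5 ± 3.42% of the TPM in NF-YAl, 78.2 ± 6.65% in NF-YAs and 78.5 ± 4.72% in Empty (SD, n = 3). POLE3 was split between transcripts of 2238 and 2268 bases, which took 68.8 ± 6.61% and 26.9 ± 5.96% in Empty, with shares of the first from 33.3 to 76.5% among the NF-YAs libraries. CHRAC1 was mostly the transcript of 2504 bases, and a non-coding transcript of 2377 bases took 8.05, 8.58 and 11.6% in Empty A, B and C, 14.2, 12.2 and 8.41% in NF-YAl A, B and D, and 6.25, 4.89 and 7.07% in NF-YAs A, B and C. NF-YAs lay below both other groups for this CHRAC1 share (exact permutation p = 0.1 against either). Transcript usage was called for 0 of 13 member transcripts in each comparison by edgeR's test of usage, with 0, 1 and 1 at an unadjusted p under 0.05 for NF-YAl and NF-YAs against Empty and between the lines, and 0 by limma. Of all transcripts, 0.0545%, 0.0623% and 0.0156% were called in these comparisons. In simulated data for NF-YAl against Empty, over 23127 transcripts, this test recovered 0 of 145 changes of 1.5 on the log2 scale, so that it could not show changes of that size.

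Neighbouring and overlapping genes were read beside the members. The 20 tested genes nearest to NFYA on chromosome 6, 10 on each side, had a median log2FC of 0.23 in NF-YAl and 0.12 in NF-YAs, beside 1.89 and 1.51 for NFYA. Those around POLE4 on chromosome 2 had a median of -0.24 between the lines, beside -0.74 for POLE4. Exons of NFYA overlap those of OARD1 by 75 bases on the opposite strand and those of the pseudogene ADCY10P1 by up to 262 bases on the same strand. They also overlap a long non-coding RNA gene without a symbol by 480 bases on the opposite strand, for which no level is given here. ADCY10P1 rose in NF-YAl, with a log2FC of 1.29 (adjusted p = 0.00176) from a mean of 1.87 CPM in Empty, and OARD1 fell in NF-YAs, with a log2FC of -0.55 (adjusted p = 0.00728). NFYC, DR1 and POLE3 overlap opposite-strand genes by 104 to 287 exonic bases, none of which was called against Empty. The strand setting of the counting is not given in the sources used here, and the part of these overlaps in the members' counts was not tested. GENCODE lists 5 processed pseudogenes named after members, and 0 of them have a row in the count tables. Their part in the members' counts was not tested.

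Genes with a pattern like that of the NF-Y subunits were sought over the 9 libraries, as the root mean square distance of log2 CPM from the Empty mean among 10540 other genes with a mean of at least 10 CPM. Nearest to NFYA were ADAM11 at 0.133, RHOBTB1 at 0.191 and EFNB3 at 0.217, beside a median distance of 1.42. Nearest to NFYB were LGALSL at 0.0852, TMEM106B at 0.0882 and RCN2 at 0.0990, beside a median of 0.473. NFYC was closest to TMEM206 at 0.0764, EIF2B5 at 0.0775 and IGF2BP2 at 0.0881, beside a median of 0.383. NFYC ranked 333 by its distance to NFYB and NFYB ranked 1237 by its distance to NFYC, with 0.222 between them, and NFYA stood 1.08 from NFYB and 1.14 from NFYC.

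Other histone-fold genes gave a mixed picture. Among the 16 histone-fold subunits of TFIID, SAGA and ATAC, coactivator complexes of RNA polymerase II, 2 rose, 2 fell and 12 were not called in NF-YAl against Empty, and the counts were the same in NF-YAs, beside the 19.6% and 22.6% given above. The median log2FC was 0.13 and 0.08. No member of the list passed a |log2FC| of 1, and the genes called are named after their values were seen. TAF4B, a TFIID subunit, rose in NF-YAl and NF-YAs, with log2FC of 0.67 (adjusted p = 0.00584) and 0.74 (adjusted p = 0.00297), and TAF10, shared by TFIID and SAGA, fell in both, with -0.58 (adjusted p = 0.00660) and -0.68 (adjusted p = 0.00225). In NF-YAl, YEATS2 of ATAC rose by 0.42 and TAF6 of TFIID fell by 0.41 on the log2 scale (adjusted p = 0.00345 and 0.00451). In NF-YAs, TAF3 of TFIID rose by 0.86 and TADA1 of SAGA fell by 0.64 on the log2 scale (adjusted p = 0.00207 and 0.00722). Of the 5 centromere histone-fold proteins, CENPA among them, edgeR called 0 in any comparison, with 0, 2 and 3 at an unadjusted p under 0.05 in NF-YAl and NF-YAs against Empty and between the lines. Their median log2FC was -0.16 in NF-YAl, 0.29 in NF-YAs and -0.53 between the lines.

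Of 6 partners of the members in their complexes, 0 were called in NF-YAl by edgeR, with 1 at an unadjusted p under 0.05, and 1 was called in NF-YAs against Empty. This was POLE, the catalytic subunit of DNA polymerase epsilon, named after its values were seen. The group means of POLE were 101 CPM in NF-YAl, 148 CPM in NF-YAs and 76.2 CPM in Empty. Its log2FC was 0.40 (adjusted p = 0.0115) in NF-YAl, 0.95 (adjusted p = 3.61e-05) in NF-YAs and -0.55 (adjusted p = 0.00330) between the lines. POLE and POLE4 thus were both lower in NF-YAl than in NF-YAs, while POLE2 had a log2FC of -0.15 (adjusted p = 0.617) and POLE3 one of -0.12 (adjusted p = 0.485) in that comparison. TBP, on which NC2 sits, and SMARCA5, the motor of CHRAC, were not called in any comparison.

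**Figure D5:**
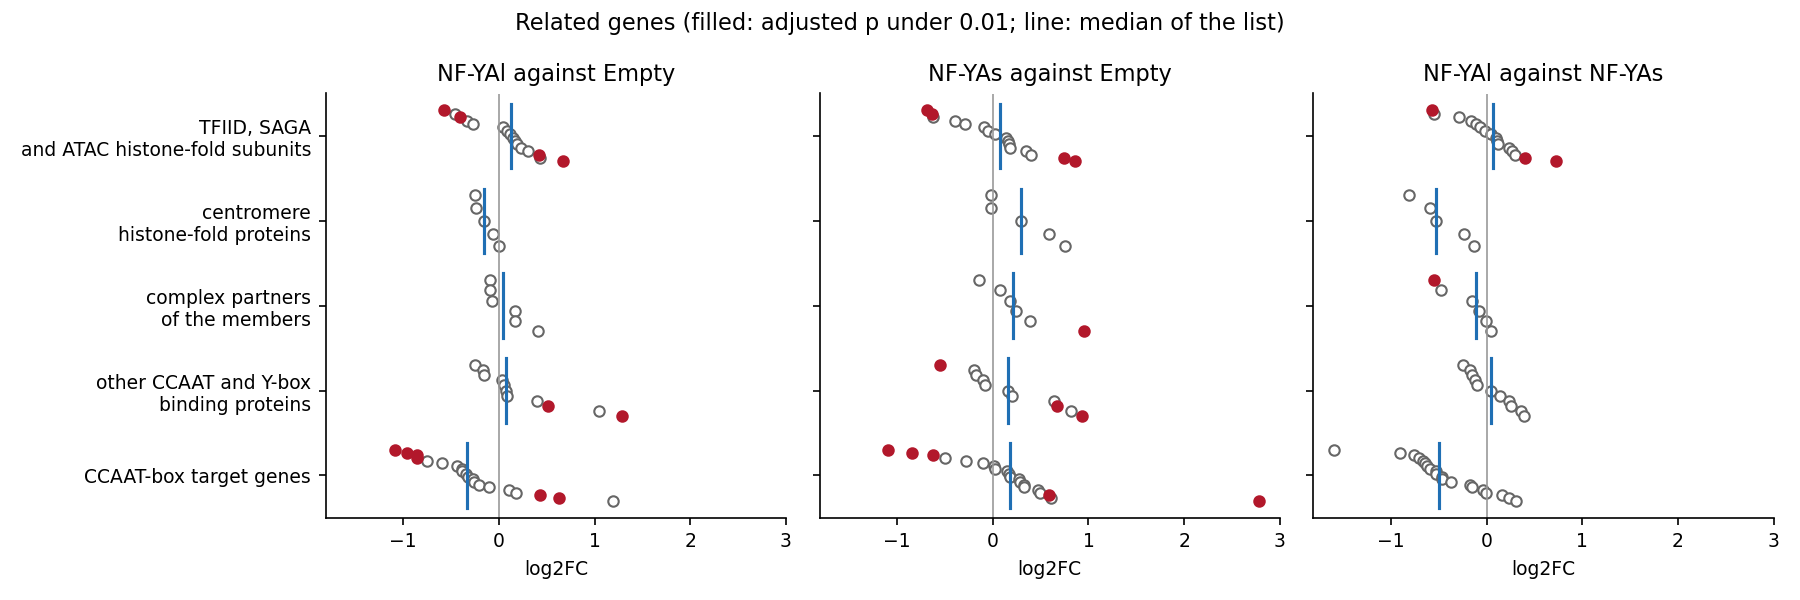
The log2FC (x axis) of the genes of 5 lists (rows) in the 3 comparisons (panels). Each point is a gene, filled points had an adjusted p under 0.01 and vertical lines are list medians, which for the CCAAT-box targets lay at -0.33, 0.18 and -0.50.

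Among 11 other proteins that bind CCAAT-like or Y-box elements, 2 rose and 0 fell in NF-YAl, and 2 rose and 1 fell in NF-YAs. These are 18.2% and 27.3% of the list, beside 19.6% and 22.6% of all tested genes. NFIA, of the nuclear factor I family, rose in both, with a log2FC of 1.29 (SE 0.174, adjusted p = 1.72e-04) in NF-YAl and 0.93 (SE 0.174, adjusted p = 0.00139) in NF-YAs. YBX3, a Y-box protein named after its values were seen, rose by 0.52 and 0.67 on the log2 scale (adjusted p = 0.00166 and 2.46e-04). Of 21 genes known for CCAAT boxes in their promoters, 20 could be tested. In NF-YAl 2 rose and 4 fell, with a median log2FC of -0.33, and in NF-YAs 2 rose and 3 fell, with a median of 0.18. The called genes were 30% and 25% of the list, beside the same 19.6% and 22.6%. Between the lines 0 were called by edgeR, beside 11.0% of all tested genes, with 12 at an unadjusted p under 0.05, and the median was -0.50. In that comparison the list's genes of cell cycle and DNA synthesis ran from -0.91 (TK1) to -0.18 (CDC25B). The other genes ran from -1.59 (COL1A2) to 0.31 (PDIA4). TK1 had 66.9 ± 28.3 CPM in NF-YAl and 126 ± 2.82 CPM in NF-YAs (SD, n = 3). HMGCS1, of cholesterol synthesis, fell in both lines, with log2FC of -1.09 (adjusted p = 9.76e-05) and -0.62 (adjusted p = 0.00347), and so did DDIT3, a stress-response factor, with -0.86 (adjusted p = 6.52e-04) and -1.09 (adjusted p = 1.11e-04). COL1A2, a collagen chain with 3 to 37 counts per library, rose in NF-YAs, with a log2FC of 2.78 (SE 0.497, adjusted p = 0.00101).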

How the data were processed

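RNA-seq was performed in 9 libraries of PC-3 MTSs. The authors aligned reads of stranded total RNA libraries to human RefSeq transcripts of GRCh37/hg19 with Bowtie2 within RSEM. For each library, expected counts and TPM of genes and transcripts were deposited, the expected counts not normalized and the TPM scaled by the authors' software to a fixed total and corrected for effective length. The deposited percent values (IsoPct) are the share of a gene's TPM taken by each transcript.

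Rounded expected counts entered edgeR 4.0.16 under R 4.3.3 (filterByExpr, TMM, quasi-likelihood F tests over all 3 groups, Benjamini-Hochberg adjustment over all features), with an adjusted p under 0.01 as called and a |log2FC| above 1 for a DEG. CPM are TMM-scaled. Transcripts were tested likewise and their usage with diffSpliceDGE. Shares and TPM ratios were compared by two-sided exact permutation tests. DESeq2 1.42.0, limma 3.58.1 on log2(TPM + 1), other filters and scalings, the replicate letter as a block and each replicate left out were alternatives. Replicates were independent cultures by the methods, and p-values measure the spread between them.

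The 8 members and the 5 lists of related genes were chosen with earlier results of these data known. Named are all members, their transcripts with a mean share of at least 10% in a group, up to 4 DEGs per list with the largest |log2FC|, and the 3 nearest genes for each NF-Y subunit (pseudocount of 0.5 on CPM). Other genes of the lists, which are no DEGs, were named after their values were seen. The edgeR procedure was tested on simulated data of 16923 genes for NF-YAl against Empty, in which it recovered 188 of 200 genes changed by a log2FC of 1.5 and called 1 unchanged gene. This simulation and those of transcripts gave all groups the same spread and changed only features above a floor of mean counts. In the data the NF-YAl replicates spread more, so that these figures need not hold there. Positions are from GENCODE on GRCh37 and promoters from RefSeq. Some of the cell line markers are not reported here.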

Additional observations from a re-analysis of the deposited data

Results flagged for a closer look

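POLE4 differed between NF-YAl and NF-YAs by a log2FC of -0.74 (SE 0.144, adjusted p = 0.00344, edgeR), with all 3 NF-YAl libraries below and all 3 NF-YAs libraries above the Empty libraries. It drew attention because in the main edgeR fit the direct test of the lines passed while neither line passed against Empty. This pattern belongs to the main fit. In edgeR fits of only the 2 groups compared, the call between the lines was lost and NF-YAs against Empty had an adjusted p of 0.0105.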

How the results depend on the processing

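The number of members called in NF-YAl against Empty was 1, but 4 with DESeq2 (NFYA, NFYB, NFYC and DRAP1), 2 without a filter, 5 at an adjusted p under 0.05, and 1 to 4 when 1 replicate was left out. In NF-YAs against Empty it was 1, but 2 in a fit of the 2 groups alone (with DRAP1), and 1 in each fit without 1 replicate. Between the lines it was 1, but 2 with DESeq2, 0 in a fit of the 2 groups alone, 0 by limma on log2(TPM + 1), 2 at an adjusted p under 0.05, and 0 to 2 without 1 replicate. Of the member transcripts, 1 was called in each line against Empty, but 3 with DESeq2 in NF-YAl and 0 to 1 without 1 replicate, and between the lines 0, but 3 with DESeq2. The replicate letters were not taken to pair the libraries. Same-letter libraries of Empty and NF-YAs deviated together with r of 0.0771, -0.0128 and 0.0984. The letters A and B gave 0.123 and 0.253 for Empty with NF-YAl and -0.0652 and 0.130 for NF-YAl with NF-YAs. Pairs of different letters ran from -0.22 (Empty A with NF-YAl B) to 0.163 (NF-YAl D with NF-YAs A). These values do not settle whether some libraries were paired. With the letter as a replicate block, which drops NF-YAl library D from the comparison because no other group has that letter, 4 members were called in NF-YAl against Empty (NFYA, DR1, DRAP1 and POLE4), 1 in NF-YAs against Empty and 2 between the lines (DR1 and POLE4), and 0 member transcripts in each of the 3 comparisons. The log2FC of a member turned in 4 of 408 alternatives, all near 0 and not called: CHRAC1 in NF-YAs against Empty at 0.072 and POLE3 between the lines at 7.41e-04 on log2(TPM + 1), and DR1 and DRAP1 between the lines, whose values without 1 replicate ran from -0.454 to 0.089 and from -0.413 to 0.0021, turning without NF-YAl replicate A. Of the rest, 383 kept direction and call, 16 gained a call and 5 lost it. NFYA was called in both lines against Empty under all 17 alternatives each. The NFYA share with exon 3 differed from Empty by -7.07 percentage points in NF-YAl (-19.2 to -0.425 without 1 replicate) and by -30.8 in NF-YAs (-40.4 to -24.2), and by 23.7 between the lines (11.6 to 29.9), and by share of expected counts the values were -7.10, -30.9 and 23.8. The causes were not tested.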
